A study of Mus musculus with 12 samples.

Results

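The 9 genes described here encode 4 stress-type MAP kinases, 3 RasGRP exchange factors and 2 dual-specificity phosphatases, out of 19312 genes measured in the mouse brain. They were taken from the table by symbol: Mapk11, Mapk12 and Mapk14 (p38 MAP kinases), Mapk8 (JNK1, a MAP kinase of a sister family and not a p38 kinase), Rasgrp1, Rasgrp2 and Rasgrp3, and Dusp1 and Dusp6. The choice of these genes used the difference between genotypes, with Mapk11 and Rasgrp3 known to be lower in knockouts, so member values between genotypes are given as a description with no test. All 9 passed the filter of a mean value of at least 10 in every comparison. In short, the normalized counts of Mapk11 and Rasgrp3 in all 6 knockouts lay below those of all 6 WT mice, and no member passed the test between memantine and vehicle in either genotype.

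RNA was sequenced from male C57BL/6N mice at postnatal day 25, with 3 mice in each of 4 groups and 1 library per mouse. WT-Veh and WT-Mem were WT mice, and KO-Veh and KO-Mem (Shank2-KO) were homozygous for a deletion of a pair of exons of Shank2, a postsynaptic scaffold of excitatory synapses, in the line B6N.129S4. WT-Mem and KO-Mem were given 20 mg/kg memantine, an NMDA receptor channel blocker, by mouth (2 doses each day, starting on postnatal day 7 and ending on day 21). WT-Veh and KO-Veh were given the vehicle, 0.1% saccharin, on the same schedule. The brains were thus taken some days after treatment had ended.

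The p38 and JNK kinases stand at the end of kinase cascades that respond to stress, cytokines and synaptic signals, and p38 signalling in neurons is known for its part in NMDA receptor-dependent and metabotropic long-term depression. RasGRP proteins are exchange factors that load Ras or Rap with GTP when diacylglycerol and calcium rise, and so feed the Raf, MEK and ERK cascade. Dual-specificity phosphatases remove phosphate from MAP kinases; DUSP1 acts in the nucleus on p38 and JNK, DUSP6 in the cytoplasm on ERK, and both genes are induced by the pathways that they switch off.

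The promoters of 4 members are shown because the results below turn on these genes. Each line gives the 250 bases before the RefSeq transcription start (build GRCm38.p6), 5′ to 3′ on the strand of the gene, and capitals mark the motifs TGACG (the core of the cAMP response element, CRE) and TATAAA, searched on both strands.
Mapk11, chr15:89149607-89149856, minus strand: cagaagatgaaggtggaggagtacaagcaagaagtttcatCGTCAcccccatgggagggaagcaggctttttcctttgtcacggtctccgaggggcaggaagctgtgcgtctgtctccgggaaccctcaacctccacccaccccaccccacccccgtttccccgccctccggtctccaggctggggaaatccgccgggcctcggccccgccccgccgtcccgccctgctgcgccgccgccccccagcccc
Rasgrp3, chr17:75435655-75435904, plus strand: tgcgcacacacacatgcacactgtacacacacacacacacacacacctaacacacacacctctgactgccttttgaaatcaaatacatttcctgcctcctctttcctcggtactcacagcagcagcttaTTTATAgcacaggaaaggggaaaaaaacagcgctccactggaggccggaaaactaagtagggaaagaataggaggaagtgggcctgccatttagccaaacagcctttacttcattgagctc
Dusp1, chr17:26508473-26508722, minus strand: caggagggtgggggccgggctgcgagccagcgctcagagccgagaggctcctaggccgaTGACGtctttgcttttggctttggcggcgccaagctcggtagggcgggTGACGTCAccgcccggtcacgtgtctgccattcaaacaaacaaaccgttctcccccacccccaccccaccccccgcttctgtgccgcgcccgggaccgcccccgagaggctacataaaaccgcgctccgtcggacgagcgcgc
Dusp6, chr10:99262981-99263230, plus strand: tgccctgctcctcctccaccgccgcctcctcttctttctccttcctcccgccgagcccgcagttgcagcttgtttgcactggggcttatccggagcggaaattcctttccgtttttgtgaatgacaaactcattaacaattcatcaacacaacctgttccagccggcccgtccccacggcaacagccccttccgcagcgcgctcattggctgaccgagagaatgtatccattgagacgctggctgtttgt

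The Dusp1 window held the full CRE letters TGACGTCA once, 143 bases before the start, which 1.55% of all 32851 windows of that length contain. It held TGACG at 3 places on either strand, of which the full CRE accounts for an overlapping pair, and 17.8% of all windows hold at least 1. The Mapk11 window held TGACG once and GGGCGG, the core of the Sp1 motif, at 4 places, against 32.7% of all windows with at least 1. The Rasgrp3 window shown, the first of 2 listed, held TATAAA once on the opposite strand, 121 bases before the start, as 12.4% of windows do. The other Rasgrp3 window, at chr17:75465288-75465537, held none of the letters searched. The Dusp6 window held none of the letters searched, which besides these were the AP-1 motif TGANTCA (6.75% of windows) and the CArG box (1.47% of windows). All 9 members matched a RefSeq window, and these matches describe letters only.

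The values are normalized counts. A single read corresponded to 0.871 to 1.12 units among the 12 mice, so that a value of 300 stands for roughly as many reads. The deletion could be read in the data, since the normalized count of Shank2 was 7156 to 8548 in the 6 WT mice and 2706 to 3178 in the 6 knockouts. The labels name whole brain and the methods the forebrain without cerebellum and brain stem. The 4 measured cerebellar markers summed to 38.2 to 166 in 11 mice and to 2328 in KO-Veh replicate 3, where Gabra6 of cerebellar granule cells was at 254 against at most 12.9 elsewhere. KO-Veh replicate 3 thus went against the stated dissection, so member values, named genes, group overlaps and r values that use it are also given without it, singly or as a range.

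Mapk11 encodes p38β, an isoform expressed in brain. It lies at chr15:89142486-89149628 on the minus strand (ENSMUSG00000053137, GRCm38). In the vehicle groups the normalized count was 1447, 1576 and 1583 for the WT mice against 1038, 1080 and 915 for the knockouts. In the memantine groups it was 1380, 1304 and 1474 for the WT mice against 735, 892 and 1116 for the knockouts. The highest knockout was thus below the lowest WT mouse, and the knockouts averaged 65.9% of the WT mean. The log2 fold change was -0.60 ± 0.08 (SE) in Veh-K/W (KO-Veh against WT-Veh), -0.62 ± 0.13 in Mem-K/W (KO-Mem against WT-Mem) and -0.61 ± 0.08 over all 12 mice with treatment as a term. Without KO-Veh replicate 3 the Veh-K/W value was -0.53 and the 12-mouse value -0.58. In each genotype the memantine group had the lower mean, and its range overlapped that of the vehicle group.

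Mapk12 encodes p38γ, best known from skeletal muscle. Its gene ends 1782 bp from that of Mapk11, on the same strand. WT-Veh mice had 170, 104 and 164 normalized counts and WT-Mem mice 192, 116 and 193. KO-Veh mice had 165, 208 and 212 and KO-Mem mice 159, 195 and 211. The genotypes overlapped under both treatments, and the log2 fold change was 0.44 ± 0.20 in Veh-K/W (0.37 without KO-Veh replicate 3) and 0.20 ± 0.21 in Mem-K/W. The direction was thus opposite to that of its neighbour Mapk11, with WT-Veh replicate 2 and WT-Mem replicate 2 as the lowest mice. Without WT-Mem replicate 2 the Mem-K/W value was -0.044, so that its sign rested on that mouse.

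Mapk14 encodes p38α, the most widely expressed p38 kinase. The 3 WT-Veh values were 3619, 3692 and 2818 normalized counts, and those of WT-Mem were 3866, 3661 and 3671. The 3 KO-Veh values were 3554, 3646 and 3177, and those of KO-Mem were 3462, 3386 and 3573. In Veh-K/W the groups overlapped, with a log2 fold change of 0.04 ± 0.10, and in Mem-K/W the 3 knockouts lay just below the 3 WT mice, at -0.10 ± 0.06. The Veh-K/W value was -0.08 without WT-Veh replicate 3, the lowest mouse, and 0.10 without KO-Veh replicate 3. The fourth p38 gene, Mapk13, was near the limit of detection at 2.93 to 15.4.

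Mapk8 encodes JNK1. In the vehicle groups the normalized count was 3528, 3085 and 3229 for the WT mice against 3358, 3378 and 3596 for the knockouts. In the memantine groups it was 3400, 3322 and 3016 for the WT mice against 3607, 3419 and 3678 for the knockouts. The knockouts overlapped the WT mice under vehicle (0.07 ± 0.07, and 0.04 without KO-Veh replicate 3) and lay above them under memantine (0.14 ± 0.07). Mapk8 varied little, by 1.22 times from the lowest to the highest of the 12 mice, against 2.15 times for Mapk11.

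Levels of different genes were compared only per kilobase of the principal transcript. On this scale the p38 genes had the same order in all 12 mice, with Mapk14 at 52.0% to 71.6% of their summed level, Mapk11 at 21.9% to 42.1% and Mapk12 at 3.32% to 8.47%. The Mapk11 share was 37.8% ± 3.87 (SD, n = 3) in WT-Veh, 33.0% ± 1.29 in WT-Mem, 27.5% ± 0.546 in KO-Veh and 25.4% ± 3.42 in KO-Mem. The 6 knockouts, at 21.9% to 28.7%, did not overlap the 6 WT mice, at 31.9% to 42.1%. KO-Veh replicate 3 lay inside the knockout range for Mapk11, at 26.9%, and had the highest Mapk12 share, which reached 7.56% in the other 11 mice.

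**Figure D1:**
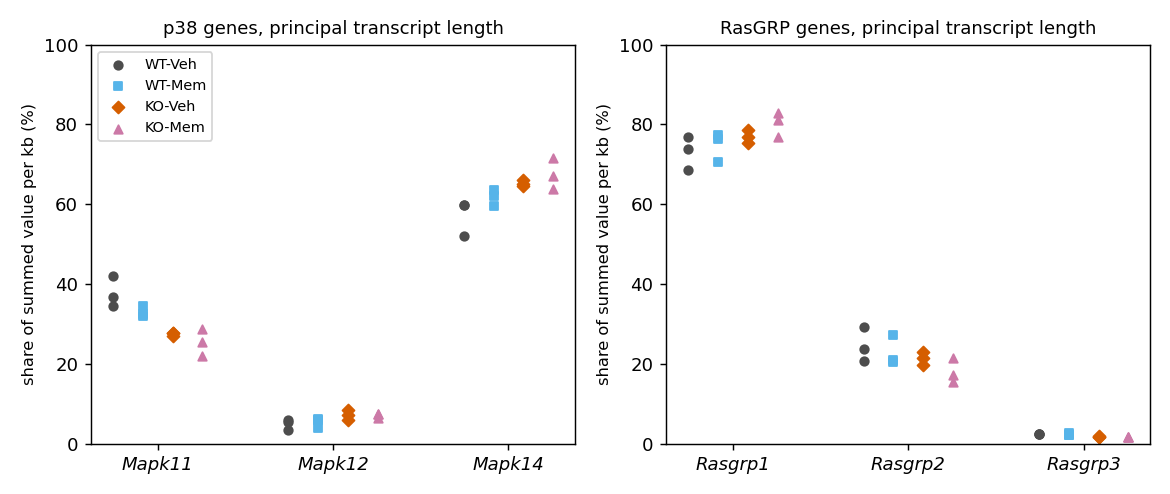
Share of each p38 gene and each RasGRP gene in the summed normalized count per kilobase of its family (y axis, percent), with 1 point per mouse and 3 mice in each of 4 groups. The Mapk11 points of the knockouts sit at 21.9% to 28.7%, below those of the WT mice, and Rasgrp1 holds 68.6% to 82.9% of the RasGRP level in every mouse.

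Rasgrp1, the exchange factor also known for T cell receptor signalling, had the highest level per kilobase of the 9 members. WT-Veh mice had 13399, 12728 and 11658 normalized counts and WT-Mem mice 13184, 13638 and 11768. KO-Veh mice had 12412, 11675 and 11801 and KO-Mem mice 13148, 12988 and 11966. The genotypes overlapped under both treatments, and the log2 fold change was -0.07 ± 0.07 in Veh-K/W (-0.06 without KO-Veh replicate 3) and -0.02 ± 0.07 in Mem-K/W. Rasgrp1 was the least variable member, spanning 1.17 times over the 12 mice.

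Rasgrp2 encodes CalDAG-GEFI, which acts mainly on Rap1 and is abundant in striatum and platelets. The 3 WT-Veh values were 1592, 1802 and 2176 normalized counts, and those of WT-Mem were 1541, 1648 and 1983. The 3 KO-Veh values were 1515, 1567 and 1292, and those of KO-Mem were 1230, 1069 and 1464. Within each treatment all knockouts lay below all WT mice, but KO-Veh replicate 2 (1567) was above WT-Mem replicate 1 (1541). The log2 fold change was -0.34 ± 0.11 in Veh-K/W and -0.46 ± 0.13 in Mem-K/W. The Veh-K/W value was -0.26 without KO-Veh replicate 3 and -0.22 without WT-Veh replicate 3, which had the highest Rasgrp2 value and the highest sum of oligodendrocyte markers (407701).

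Rasgrp3, an exchange factor for Ras and Rap1 known from B cells and blood vessels, was the least abundant RasGRP member. It lies at chr17:75435896-75529054 on the plus strand (ENSMUSG00000071042). In the vehicle groups the normalized count was 387, 376 and 355 for the WT mice against 271, 229 and 239 for the knockouts. In the memantine groups it was 333, 432 and 327 for the WT mice against 241, 220 and 229 for the knockouts. All knockouts lay below all WT mice, at 64.6% of the WT mean. The log2 fold change was -0.60 ± 0.11 in Veh-K/W, -0.65 ± 0.13 in Mem-K/W and -0.62 ± 0.08 over the 12 mice, and it was -0.58 in Veh-K/W without KO-Veh replicate 3. Both KO groups were tightly spaced, with KO-Mem at 230 ± 10.8 (SD, n = 3), whereas WT-Mem replicate 2 stood above the other 2 mice of its group. The ranges of the treatments overlapped in each genotype.

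Per kilobase of principal transcript, Rasgrp1 held 76.3% of the summed RasGRP level on average over the 12 mice, Rasgrp2 21.7% and Rasgrp3 2.02%. These averages were 76.0%, 21.9% and 2.05% without KO-Veh replicate 3. The Rasgrp2 share depends on the length assumed, and was 6.78% with the longest annotated transcript of 8815 bp in place of the principal transcript of 2296 bp. Rasgrp4 was measured at 26.2 to 112 normalized counts.

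Dusp1 (ENSMUSG00000024190) was the most variable member, by 2.74 times from the lowest to the highest mouse. WT-Veh mice had 520, 929 and 1423 normalized counts and WT-Mem mice 1127, 1088 and 946. KO-Veh mice had 1266, 870 and 583 and KO-Mem mice 802, 805 and 1024. The range of WT-Veh alone spanned that of all 12 mice, and the log2 fold change in Veh-K/W was -0.03 ± 0.34. It was 0.25 without KO-Veh replicate 3, the lowest knockout, 0.31 without WT-Veh replicate 3 and -0.41 without WT-Veh replicate 1, so that its sign turned with the mouse left out. In Mem-K/W it was -0.27 ± 0.11 with overlapping groups.

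Dusp6 (ENSMUSG00000019960) stood at 1666, 2311 and 2436 normalized counts under vehicle and 2616, 2196 and 2425 under memantine in WT mice. Knockouts stood at 2157, 1813 and 1161 under vehicle and 1165, 1484 and 2148 under memantine. Under vehicle the genotypes overlapped, with a log2 fold change of -0.35 ± 0.21 that shrank to -0.09 without KO-Veh replicate 3. Under memantine the 3 knockouts lay below the 3 WT mice, by the small gap of 2148 to 2196 at the closest, with -0.64 ± 0.18. KO-Veh replicate 3 and KO-Mem replicate 1 were the lowest of the 12 mice at nearly the same value.

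**Figure D2:**
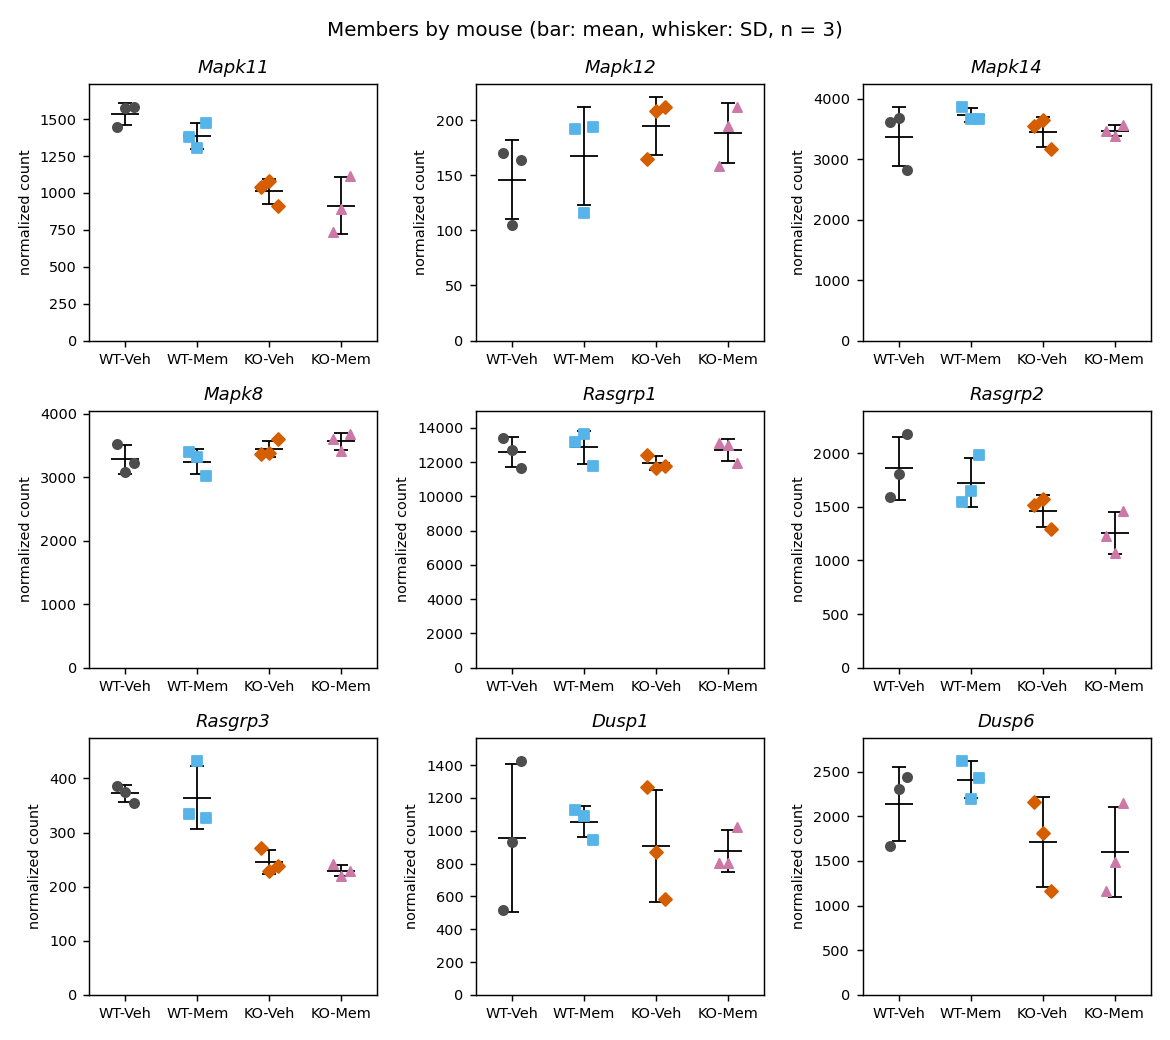
Normalized count (y axis, from 0) of each of the 9 members in each of the 12 mice, by group on the x axis, with a bar for the mean and a whisker for the SD of 3 mice. Mapk11 and Rasgrp3 separate the KO-Veh and KO-Mem mice from all WT mice, and Dusp1 and Dusp6 spread widely inside groups.

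Counted over the members, the 2 groups did not overlap for 3 of 9 in Veh-K/W, all lower in knockouts, against 20.4% of all 17671 genes tested (10.7% lower). They did not overlap for 6 of 9 in Mem-K/W, 5 lower and 1 higher, against 26.2% of 17646 genes (13.5% lower and 12.7% higher). Over all 6 knockouts and 6 WT mice, 2 of 9 did not overlap, Mapk11 and Rasgrp3, against 4.06% of 17655 genes (2.2% lower). Since the genotype difference chose the members, these counts describe the choice. The same 3 members were apart in Veh-K/W without KO-Veh replicate 3, against 27.3% of genes, and the same 2 over the remaining 11 mice, against 4.65%. The median log2 fold change over all genes was 0.00 in both comparisons of genotype.

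Memantine did not move any member past the test, a comparison that played no part in choosing them. In KO-M/V (KO-Mem against KO-Veh) 0 of 9 members were called by limma at an adjusted p under 0.05 and 0 of 9 at an unadjusted p under 0.05, where 0.0% and 8.88% of all 17707 genes were. Their adjusted p ranged from 0.588 to 0.988. Without KO-Veh replicate 3 it ranged from 0.582 to 0.983, and without KO-Mem replicate 3, where 97 of all genes were called, still no member was called. In WT-M/V (WT-Mem against WT-Veh) the counts were also 0 of 9 and 0 of 9, against 0.0114% and 3.97% of 17564 genes, with adjusted p from 0.978 to 0.995. No member had groups without overlap in either comparison, against 13.9% of genes in the knockouts and 9.34% in the WT mice. With KO-Veh replicate 3 left out, the groups did not overlap for Mapk8 (higher) and Rasgrp2 (lower) in KO-M/V, 2 of 9 members against 27.1% of genes.

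The size of a memantine effect that these data leave room for differed by gene. For Mapk11 the log2 fold change was -0.16 ± 0.14 in KO-M/V (95% interval -0.48 to 0.15) and -0.15 ± 0.08 in WT-M/V (-0.32 to 0.03). For Rasgrp3 it was -0.10 ± 0.12 in KO-M/V (-0.36 to 0.17) and -0.04 ± 0.12 in WT-M/V (-0.32 to 0.23). In the knockouts neither gene was thus nearer to the WT mean after memantine than after vehicle. Rasgrp1 and Mapk8 had the narrowest KO-M/V intervals, -0.03 to 0.20 and -0.07 to 0.18, and Dusp6 the widest, -0.66 to 0.47. Without KO-Veh replicate 3 the KO-M/V value was -0.23 for Mapk11, -0.12 for Rasgrp3, -0.27 for Dusp1 (0.01 with it) and -0.35 for Dusp6 (-0.10 with it). With both genotypes pooled (memantine against vehicle, genotype as a term), 0 of 9 members were called and 0 of 9 had an unadjusted p under 0.05, against 0.0% and 8.6% of all genes, with adjusted p from 0.613 to 0.952 by limma, and the smallest belonged to Mapk11 at -0.16 ± 0.08.

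The test of whether the genotype difference itself differed between treatments (the interaction over 12 mice) also called 0 of 9 members, where 0.0% of genes were, with adjusted p from 0.948 to 0.997 by limma and 0 of 9 at an unadjusted p under 0.05, where 4.76% of genes were. For Mapk11 the interaction was -0.01 ± 0.17 and for Rasgrp3 -0.05 ± 0.17 on the log2 scale. For Dusp6, which separated the genotypes under memantine and not under vehicle, it was -0.29 ± 0.32 (95% interval -0.97 to 0.40), so that a difference between treatments was not shown. Without KO-Veh replicate 3 the interaction was -0.09 for Mapk11, -0.07 for Rasgrp3 and -0.54 for Dusp6, and the adjusted p of the members ranged from 0.876 to 0.96 by limma.

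**Figure D3:**
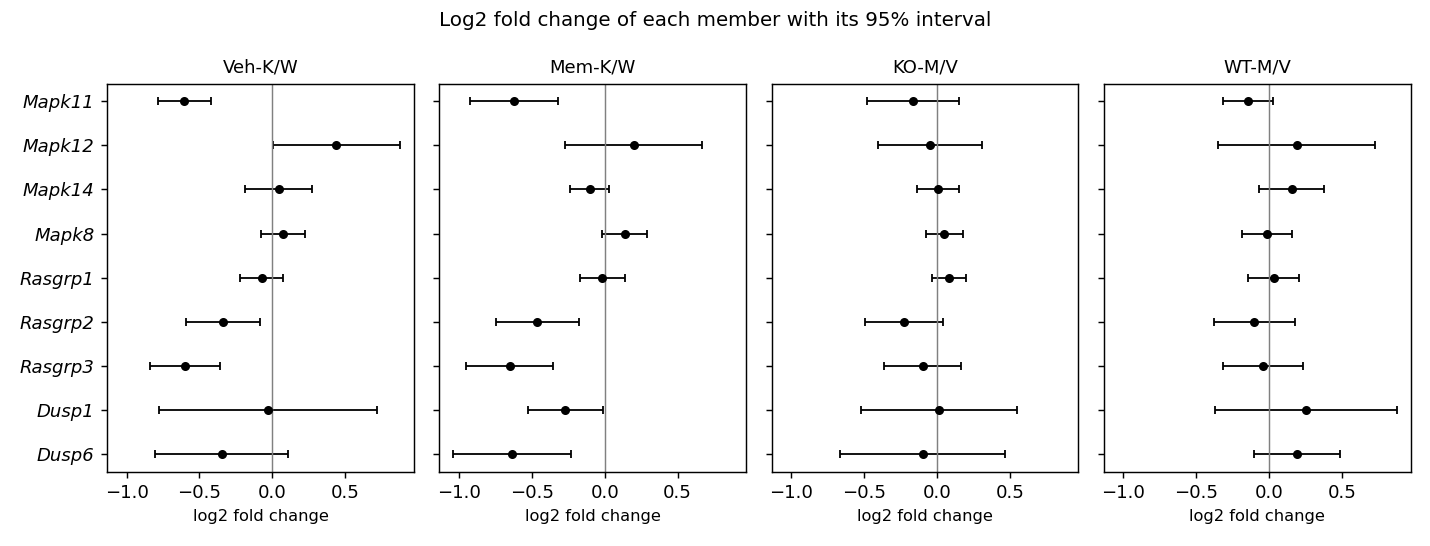
Log2 fold change (x axis) of each member in the 2 comparisons of genotype and the 2 of memantine, with whiskers for the 95% interval from limma on 6 mice each. The genotype values chose these genes and are shown as a description with no test, with Mapk11 and Rasgrp3 at -0.60 to -0.65, and every interval spans 0 in both comparisons of memantine.

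Some marker sums of other cell types differed between genotypes as well, and others overlapped. The 3 oligodendrocyte precursor markers summed to 8783 to 9450 in the 6 WT mice and 6356 to 8308 in the 6 knockouts, and the 5 endothelial markers to 4833 to 5792 and 3959 to 4729, with no overlap in either sum. Single markers did not all move this way. Gpr17, of committed precursors, was at 5369 to 6134 in WT mice and 2953 to 5107 in knockouts, whereas Pdgfra (2005 to 2295 and 1997 to 2324) and Cspg4 (984 to 1172 and 866 to 1117) overlapped, so that Gpr17 carried most of the difference in the precursor sum. Of the endothelial markers only Pecam1 was apart between genotypes, at 568 to 662 and 458 to 560, where 4.06% of all genes were apart. Leaving out KO-Veh replicate 3 changed neither bound of these knockout ranges. The 6 oligodendrocyte markers summed to 294380 to 407701 in WT mice and 237444 to 305397 in knockouts, with overlap. The 5 neuronal markers summed to 141020 to 164921 and 154767 to 161362 (from 156596 without KO-Veh replicate 3). Overlap was also seen for the 5 astrocyte markers (31743 to 35234 and 30356 to 32237). It was seen as well for the 5 microglial markers (5672 to 6914 and 4486 to 5730, or to 5687 without KO-Veh replicate 3). The 4 choroid plexus markers overlapped too, at 12535 to 14767 and 7246 to 15511. In bulk tissue, fewer cells of a type and less RNA per cell cannot be told apart, and the part of these markers in the member values was not tested.

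After each group mean was removed, the log2 value of Mapk11 still went with several marker sums over the 12 mice, with r = 0.96 for choroid plexus, 0.82 for oligodendrocyte precursors, 0.77 for activity-dependent genes and 0.66 for oligodendrocytes. These were 0.96, 0.81, 0.75 and 0.67 without KO-Veh replicate 3. The spread of Mapk11 inside groups was largest in KO-Mem, with an SD of 192 against 76.2 to 85.8 in the other groups. The choroid plexus sum also ranged most widely in KO-Mem, and these r values were not obtained without a KO-Mem mouse. Rasgrp2 had r = 0.72 with the oligodendrocyte sum (0.74 without KO-Veh replicate 3). Rasgrp3 had r = -0.59 with oligodendrocytes, -0.19 with their precursors and -0.32 with endothelium, and 0.45 with neurons. Without that mouse these were -0.61, -0.24, -0.32 and 0.44. Other members had r values of such size too. They were -0.89 for Rasgrp1 with oligodendrocytes, 0.85 for Mapk14 with neurons and 0.84 for Dusp6 with choroid plexus (-0.91, 0.86 and 0.82 without that mouse). Of these 3, Dusp6 was itself lower in knockouts under memantine, and the Rasgrp1 value was negative. Whether cell types have a part in the member values was not tested. All these r values share the same libraries and normalization and are a description.

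The genes most like Mapk11 over the 12 mice, among 12877 genes with a mean of at least 100, were Cavin3 (r = 0.98 on the log2 scale), Adipor1 (0.98), Cryab, a small heat shock protein (0.98), and Acsbg1, an acyl-CoA synthetase (0.97). After the group means were removed these r values were 0.89, 0.97, 0.95 and 0.87, so that the likeness was also seen inside groups. The like genes were picked for r over these same mice, so r inside groups is a description and no separate check. Those most like Rasgrp3 were Shank2 itself (r = 0.95), Ccnd1, cyclin D1 (0.92), Tpcn2, a lysosomal channel (0.91), and Fam163a (0.91). Their r inside groups was only 0.48, 0.21, 0.38 and 0.47, so that the likeness rested on the split by genotype. Over the 11 mice other than KO-Veh replicate 3, r was 0.97 to 0.98 for the 4 genes like Mapk11 and 0.91 to 0.95 for those like Rasgrp3. Ccnd1 and Tpcn2 lie on chromosome 7 at 0.505 and 0.762 Mb from Shank2, and Cavin3 on the same chromosome at 38.5 Mb, whereas Rasgrp3 lies on chromosome 17 and Mapk11 on chromosome 15.

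No gene tested beside Mapk11 or Rasgrp3 was called lower in knockouts. Of the tested genes within 50 kb of Mapk11, Selenoo was higher in knockouts over the 12 mice (log2 fold change 0.21 ± 0.06, adjusted p = 0.0387, limma), though 7 of the 12 fits that leave out 1 mouse lost it, that without KO-Veh replicate 3 included (adjusted p = 0.0904). Plxnb2 (0.03 ± 0.05), Hdac10 (0.16 ± 0.08), Tubgcp6 (0.17 ± 0.07) and Dennd6b (0.16 ± 0.07) did not pass, with adjusted p from 0.126 to 0.715. Within 50 kb of Rasgrp3, Fam98a was at -0.07 ± 0.06 and Ltbp1 at 0.01 ± 0.08, with adjusted p of 0.41 and 0.951.

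Dusp1 and Dusp6 went with genes that neuronal activity induces. Of all 12877 genes, those most like Dusp6 were Egr1 (r = 0.98), Arc (0.98), Egr4 (0.97) and Egr2 (0.96), all immediate early genes, and r inside groups was 0.96 to 0.97. Those most like Dusp1 were Junb (r = 0.96), Nr4a1 (0.93) and Ier2 (0.93), again immediate early genes, and Sik1, a cAMP-induced kinase (0.89), with 0.90 to 0.97 inside groups. Without the 2 mice farthest from the median of the partner, r was 0.91 to 0.98 for the 4 partners of Dusp6 and 0.81 to 0.93 for those of Dusp1. It was 0.96 to 0.98 and 0.89 to 0.96 without KO-Veh replicate 3.

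A list of 11 activity-dependent genes chosen by name shares 7 genes with these partners (Egr1, Egr2, Egr4, Arc, Junb, Nr4a1 and Ier2) and is thus no separate observation. Their r with Dusp6 was 0.47 (Btg2) to 0.98 and with Dusp1 0.66 (Egr1) to 0.96, and r between Dusp1 and Dusp6 themselves was 0.73. The lowest values fell to 0.36 (Btg2) and 0.54 (Egr1) without KO-Veh replicate 3, and r between the phosphatases to 0.63. The 4 genes of the list that are not among the partners (Fos, Fosb, Npas4 and Btg2) had r = 0.47 to 0.96 with Dusp6 and 0.78 to 0.86 with Dusp1. Egr1, the closest partner of Dusp6, had 7760, 10119 and 10356 normalized counts under vehicle and 11100, 9894 and 11205 under memantine in WT mice. Knockouts had 9590, 7935 and 5058 under vehicle and 4588, 7131 and 10194 under memantine. The 2 mice with the lowest Egr1 were those with the lowest Dusp6. Junb, the closest partner of Dusp1, was at 872, 1426 and 2386 in WT-Veh and 1732, 1377 and 761 in KO-Veh, in the same order as Dusp1 in both groups. In WT-Mem it was at 1650, 1687 and 1666, nearly level, and its order was not that of Dusp1. The Junb window held TGACG at 1 place, that of Nr4a1 at 4 and that of Egr4 at 2. Of 5 Egr2 windows, which overlap in part, 3 held TGACG at 2 places each and 4 held a CArG box. No motif counts were obtained for Ier2, Sik1, Arc and Egr1.

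The mouse with the lowest summed value of the 11 activity-dependent genes was KO-Veh replicate 3 (10330), the mouse with cerebellar transcripts, followed by KO-Mem replicate 1 (10892), whose cerebellar markers were low. The sums were 15243 to 34383 in WT-Veh, 26862 to 30979 in WT-Mem, 10330 to 25238 in KO-Veh and 10892 to 23528 in KO-Mem. Handling and time of collection are not in the labels, and their part in these values was not tested.

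**Figure D4:**
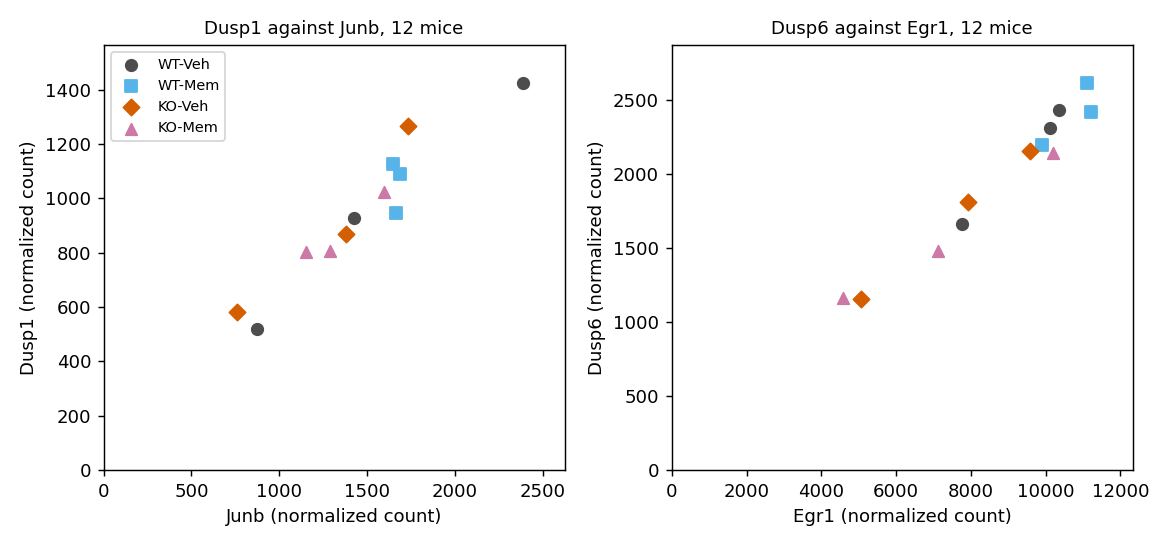
Normalized counts of Dusp1 against Junb (left) and Dusp6 against Egr1 (right), axes from 0, with 1 point per mouse and a colour for each of the 4 groups. Both pairs rise together over the 12 mice, with r = 0.96 and 0.98 on the log2 scale, and points of all 4 groups lie along the same course.

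The rest of the pathway was read from a list of 135 other genes, of which 134 were in the table. The list was drawn up with earlier results of these data known, so its shares beside those of all genes are a description. In Veh-K/W limma called 0 of 133 tested genes at an adjusted p under 0.05, where 0.0283% of all genes were called, and 33 had an unadjusted p under 0.05, a share of 24.8% against 14.4% of all genes. The smallest p among lower genes belonged to Hspb1, a small heat shock protein downstream of p38 (-0.70 ± 0.14), Gadd45a, a stress-induced activator of the p38 and JNK kinase MTK1 (-0.85 ± 0.18), and Spred3, an inhibitor of Ras signalling (-0.34 ± 0.08). Those among higher genes belonged to Rasgrf1, a calcium-regulated Ras exchange factor (0.30 ± 0.07), Map3k2 (0.27 ± 0.07) and Rasal1, a Ras GTPase activator (0.22 ± 0.06). Their adjusted p ranged from 0.135 to 0.207 by limma, and from 0.432 to 0.524 without KO-Veh replicate 3.

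In Mem-K/W limma called 0 of 134 genes, where 0.068% of all genes were called, and 32 (23.9%) had an unadjusted p under 0.05 against 21.0% of all genes. Gadd45a (-0.89 ± 0.18), Dusp3 (-0.26 ± 0.07) and Dusp5 (-0.42 ± 0.13), the latter an ERK phosphatase, had the smallest p among lower genes. Map3k9 (0.52 ± 0.13), Rasgrf1 (0.29 ± 0.08) and Rapgef1 (0.32 ± 0.09) had the smallest among higher ones, and the adjusted p ranged from 0.0884 to 0.132. Without KO-Mem replicate 3 the number called rose to 16, and that of all genes from 12 to 1911.

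With all 12 mice and treatment as a term, 22 of 133 pathway genes (16.5%) passed, 12 higher and 10 lower in knockouts, against 10.8% of all genes (4.89% higher and 5.91% lower). The count was 5 without KO-Veh replicate 3, 8 without WT-Veh replicate 2, 11, 13 and 7 without WT-Mem replicates 1, 2 and 3, 14 without KO-Veh replicate 1, and 6 without either KO-Mem replicate 1 or 2, so that it rests on most single mice. Since the list was chosen with earlier results known, its share beside that of all genes is a description only. The median log2 fold change of the list was 0.01, near that of all genes at 0.00.

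Among the upstream kinases and adaptors of p38 and JNK, 2 of 28 rose and 2 fell. For this list and those below, the share over all genes was 4.89% rising and 5.91% falling. Gadd45a fell by 0.87 on the log2 scale (SE 0.13, adjusted p = 0.00426, limma), the largest change of the called genes, and Map3k10, a mixed-lineage kinase, by 0.16 (adjusted p = 0.0292). Map3k9, another mixed-lineage kinase, rose by 0.39 ± 0.10 (adjusted p = 0.023). The called genes thus did not share a direction.

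Among effectors and scaffolds of p38 and JNK, 3 of 25 rose and 2 fell. Mef2a, a transcription factor phosphorylated by p38, rose by 0.22 ± 0.05 (adjusted p = 0.0178) and Rps6ka5 (MSK1, a kinase of CREB and histone H3) by 0.32 ± 0.08 (adjusted p = 0.0225). The JNK scaffold Mapk8ip1 fell by 0.14 (adjusted p = 0.0268). Among the other MAP kinases 1 of 9 fell and none rose, namely Mapk7 (ERK5), by 0.22 (adjusted p = 0.0162), while the remaining 8 did not pass.

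On the Ras side, 4 of 25 exchange factors, GTPase activators and Ras proteins rose and 0 fell, with Rasgrf1 at 0.30 ± 0.05 (adjusted p = 0.00833, limma). Of 10 diacylglycerol kinases, which remove the lipid that activates RasGRP, 1 rose and 0 fell. In the ERK cascade 1 of 17 rose and 1 fell, the scaffold Ksr1 by 0.29 ± 0.07 upward (adjusted p = 0.0228) and the kinase Map2k2 (MEK2) falling by 0.26 (adjusted p = 0.0258). Of 19 other MAP kinase phosphatases 1 rose and 4 fell, where 4.89% of all genes rose and 5.91% fell. Leaving out KO-Veh replicate 3 left 5 pathway genes called, namely Gadd45a, Rasgrf1, Mapk7, Mef2a and Ksr1. Rasgrf1 alone then remained on the Ras side, and no diacylglycerol kinase or other phosphatase did. Without KO-Veh replicate 3, the adjusted p of Gadd45a, Rasgrf1, Mapk7, Mef2a and Ksr1 was 0.0131 to 0.0497, and that of Rps6ka5, Map3k9, Map2k2, Mapk8ip1 and Map3k10 was 0.0569 to 0.0762. Over the 12 fits that each leave out 1 mouse, Gadd45a, Rasgrf1, Mapk7 and Mef2a passed in all 12, Ksr1 in 10, Rps6ka5 and Map3k9 in 9, Map2k2 in 8, Mapk8ip1 in 6 and Map3k10 in 4.

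**Figure D5:**
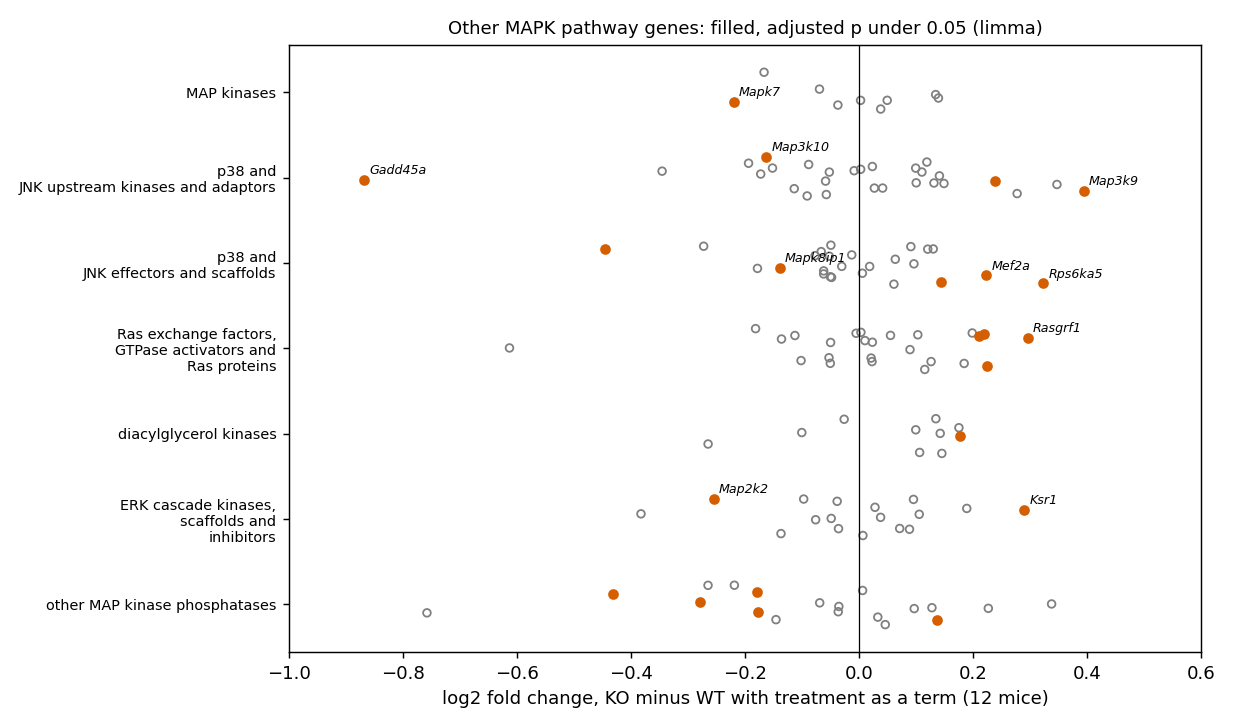
Log2 fold change of 133 other pathway genes (x axis, knockout against WT over 12 mice with treatment as a term) in 7 lists on the y axis, with vertical jitter. Filled points are the 22 genes with an adjusted p under 0.05 (limma), 12 to the right and 10 to the left of 0, and the 10 with the smallest p are named.

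Memantine called none of these genes either. In KO-M/V limma called 0 of 133, and 11 (8.27%) had an unadjusted p under 0.05 against 8.88% of all genes, with Spred3 (0.29 ± 0.07), Dgkz (0.21 ± 0.08) and Map2k7 (0.21 ± 0.08) foremost among higher and Dgkq (-0.18 ± 0.06), Rps6ka1 (-0.21 ± 0.09) and Mapk10 (-0.11 ± 0.05) among lower genes. In WT-M/V it called 0 of 133, and 3 (2.26%) had an unadjusted p under 0.05 against 3.97%, the foremost being Spry2 (0.24 ± 0.10), Rasal1 (0.16 ± 0.06) and Mapk4 (0.14 ± 0.07), and Sos2 (-0.19 ± 0.08), Mapkapk3 (-0.46 ± 0.21) and Rasgrp4 (-0.45 ± 0.22). The adjusted p ranged from 0.554 to 0.56 in the knockouts (0.582 to 0.613 without KO-Veh replicate 3, in the same directions) and was 0.978 for each in the WT mice. With genotypes pooled, limma called 0 of 133, where 0.0% of all genes were called. An unadjusted p under 0.05 was held by 12 (9.02%), near the 8.6% of all genes. In the interaction it also called 0 of 133, against 0.0% of all genes. There 7 (5.26%) had an unadjusted p under 0.05, near the 4.76% of all genes.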

How the data were processed

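RNA of 12 mice (3 per group, grouped by the titles in the labels) was sequenced by the authors. The deposited signal values are normalized counts: per the labels and methods, the authors quantified reads with Salmon 1.1.0 (quasi-mapping, corrected for GC bias, GRCm38), imported them with tximport and normalized with DESeq2. The submitters' processing notes give DESeq2 1.26.0 and R 3.6.2, and the methods name other versions of both. They are not whole, and depth is known only as the value of 1 read. The release of the annotation is not given in the sources used here. GENCODE M21 gave symbols, positions and lengths (19295 of 19312 genes matched) and RefSeq the promoters.

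Here limma 3.58.1 in R 4.3.3 (lmFit, eBayes with trend, two-sided, checked on simulated data) was run on log2(value + 1), for genes with a mean of at least 10, with Benjamini-Hochberg adjustment over all genes and calls at 0.05. A fold change on this scale understates that of low genes. Members and gene lists were chosen with earlier results of these data known. Pathway genes were named if among the 10 called with the smallest p, or the 3 with the smallest p in each direction of a comparison of 2 groups, and like genes as the 4 with the highest r to a member. Principal transcript lengths, and the r values, sums, shares and overlaps without KO-Veh replicate 3, were chosen after seeing the data. The labels do not say whether mice were littermates. Replicate numbers showed no pairing (r of same-numbered deviations -0.18 to 0.08, of differently numbered ones -0.14 to 0.18), so no block was used. A litter or batch structure that does not follow these numbers was not tested. The sum of the forebrain markers is not reported here.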

Additional observations from a re-analysis of the deposited data

How the results depend on the processing

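Pseudocount 5, a filter at a mean of 50 or none, equal sums and the fit with a replicate block changed no direction or call of a member against memantine or of the interaction. With the replicate block, 2 genes were called in Veh-K/W (5 without it), 4 in Mem-K/W (12) and 1 in WT-M/V (2). Selenoo lost its call with it (adjusted p = 0.0555, limma). In Veh-K/W 3 genes were called with pseudocount 5, 2 with the filter at 50 and 2 from 1 fit on 12 mice. In Mem-K/W 5 were called with no filter and 636 from 1 fit on 12 mice, which called 3 pathway genes. In WT-M/V 1 was called with pseudocount 5, 0 with the filter at 50 and 0 from 1 fit on 12 mice. The cause was not tested.

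With each mouse left out in turn, genes called ranged from 2 to 53 in Veh-K/W (53 without KO-Veh replicate 2, 8 without WT-Veh replicate 1), 2 to 1911 in Mem-K/W (1911 without KO-Mem replicate 3), 0 to 97 in KO-M/V, 1 to 3 in WT-M/V, 694 to 2683 in the pooled genotype comparison and 0 to 4 in the interaction. Pathway genes called ranged from 0 to 16 in Mem-K/W and 5 to 29 in the pooled comparison. The log2 fold changes whose sign turned ranged as follows. In Veh-K/W they were -0.41 to 0.31 for Dusp1 and -0.082 to 0.11 for Mapk14. In Mem-K/W they were -0.044 to 0.32 for Mapk12 and -0.0795 to 0.027 for Rasgrp1, whose value was 0.0001 with equal sums. In KO-M/V they were -0.17 to 0.067 for Mapk12, -0.052 to 0.048 for Mapk14, -0.27 to 0.29 for Dusp1 and -0.35 to 0.11 for Dusp6. In WT-M/V they were -0.036 to 0.43 for Mapk12, -0.058 to 0.038 for Mapk8, -0.025 to 0.093 for Rasgrp1, -0.21 to 0.017 for Rasgrp2, -0.17 to 0.028 for Rasgrp3 and -0.13 to 0.60 for Dusp1. With memantine pooled they were -0.044 to 0.16 for Mapk12, -0.0499 to 0.27 for Dusp1 and -0.051 to 0.15 for Dusp6. In the interaction they were -0.17 to 0.13 for Mapk11, -0.0071 to 0.11 for Rasgrp1, -0.12 to 0.074 for Rasgrp3 and -0.58 to 0.14 for Dusp1. In the pooled genotype comparison Ltbp1 ranged from -0.039 to 0.049. None of the tested values among these was called.

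Shares of family level were 3.66% for Mapk12, 92.6% for Rasgrp1 and 5.28% for Rasgrp2 with the union of exons, and 76.3% for Rasgrp1 and 21.7% for Rasgrp2 with the principal transcript. These compare with 5.96%, 90.8% and 6.78% for the longest transcript. With 3 mice per group, intervals of Dusp1 and Dusp6 remain wide. Per-read depth limits genes of low value most, such as Mapk13 (2.93 to 15.4) and Rasgrp4 (26.2 to 112).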

Other observations

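KO-Mem replicate 3 had the highest value of its group for Mapk11 (1116), Rasgrp2 (1464), Dusp1 (1024) and Dusp6 (2148). It was also the highest there for Mapk12 (211), Mapk14 (3573) and Mapk8 (3678), and the lowest for Rasgrp1 (11966). KO-Mem replicate 1 had the lowest Mapk11 (735) of all 12 mice. The choroid plexus markers (Ttr, Folr1, Kl and Clic6) summed to 7246 to 14096 in KO-Mem, the widest range of the 4 groups, against 12995 to 14544 in WT-Mem.

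Among the members, the r of Mapk11 with Dusp6 was 0.81 over the 12 mice and 0.85 after group means were removed, whereas that of Mapk11 with Rasgrp3 was 0.81 over the 12 mice and -0.33 after removal. They were 0.80, 0.86, 0.79 and -0.40 without KO-Veh replicate 3. Both genes were thus lower in knockouts without going together inside groups.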
